A study of Rattus norvegicus with 2 samples.

Results

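The gene set described here holds the large molecular chaperones of the cell: the HSP70 family with its relative Hsph1, the HSP90 family, the J-domain proteins of classes DNAJA, DNAJB and DNAJC, the mitochondrial chaperonin pair Hspd1 and Hspe1, and the cytosolic chaperonin CCT (Tcp1 and Cct2 to Cct8). Members were taken by gene symbol from the platform's probe annotation, using probe sets listed with a single symbol, and the small heat shock proteins were left out. This gave 63 member genes among 14217 genes with such a probe set, of which 56 were measured.

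RNA came from the adductor muscle of the thigh in male rats of the inbred Lewis strain, of 275 g body weight. In the stimulated group the muscle of the left hindlimb had received 100 pricks with a steel needle of 0.14 mm diameter over an area of 10 by 10 mm, and was taken 24 hours later. In the control group it was the right hindlimb, with no pricks. No transgene or drug is named in the labels, and the rats' ages are not given. Each group had 1 array, so no difference has a replicate check and no test was made. The number of rats behind each array, and whether 1 animal gave both samples, are not stated in the labels. In whole muscle, a change in the share of a cell type cannot be told apart from a change in its RNA per cell.

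HSP70 proteins bind unfolded stretches of client proteins in cycles driven by ATP. J-domain proteins bring them clients and start the ATP step, and exchange factors such as Hsph1 reset it. HSP90 takes over partly folded clients such as kinases and steroid receptors, while CCT is a closed chamber that folds actin and tubulin, among others. In muscle these systems serve the assembly and upkeep of the contractile apparatus, and the heat shock factor HSF1 raises several of them under heat, exercise or other protein stress.

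Values are MAS5 signals, a linear probe set intensity. Signals below 19.8, the median of all signals, were set to that floor first. Ratios are stimulated over control on the log2 scale, and a gene counts as measured where at least 1 array reached it. The gene's value is that of its brightest measured probe set. Where a gene had several probe sets that reached the floor on each array, as 2174 genes did, their log2 ratios differed with an SD that comes to 0.31 for a single probe set. That is the only error at hand, and it leaves out the variation between limbs and animals. At or above the floor were 48.9% of probe sets on the stimulated and 51.1% on the control array. The ratio of 3' to 5' signal of the beta-actin control was 2.43 and 2.26. The median gene had a log2 ratio of 0.019. The 18 hybridisation spike-ins were all lower on the stimulated array, by a median of -0.38, and scaling to them moved the median gene to 0.39, so directions hold only relative to the median gene. Counts above and below 0 are on the authors' scale, on which the median gene lies close to 0. Skeletal muscle identity was checked on 7 marker genes, all measured on both arrays, among them Acta1 (12095 stimulated, 16712 control) and Ckm (12064 and 16392).

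Of the 56 measured members, 0 were at least 2-fold higher in the stimulated limb and 0 were at least 2-fold lower. Of the 9956 measured genes, 1.43% were higher and 1.43% lower by that fold. For 56 genes, both counts are near that background. The members' median log2 ratio was 0.093, beside 0.019 for all measured genes. In all, 37 members lay above 0 and 19 below, that is 66.1% above 0, beside 52.3% of all genes. Above the median gene were 34, since Hsp90ab1, Dnajc13 and Dnajc30 lay between it and 0. At least a 1.5-fold higher signal was found for 5 members, Dnajc1, Hspa1a, Dnajc3, Cct3 and Cct2, which is 8.93% of the members against a background of 6.59%. The upward share is near its background. Lower by that fold was 1 member, Dnajc11, which is 1.79% of the members against a background of 6.94%. Spike-in scaling that is not taken relative to the median gene put 5 members past 2-fold, where 5.36% of all genes were then higher by that fold. They were Dnajc1 (log2 ratio 1.24), Hspa1a (1.11), Dnajc3 (1.11), Cct3 (1.03) and Cct2 (1.02). The SD of a single probe set was exceeded by 17 members, 10 above and 7 below, and the other 39 lay within it. Of all genes, 19.5% lay above that SD and 18% below its negative. The class that lay furthest from the median gene was CCT, with a median of 0.34 over 8 genes.

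**Figure D1:**
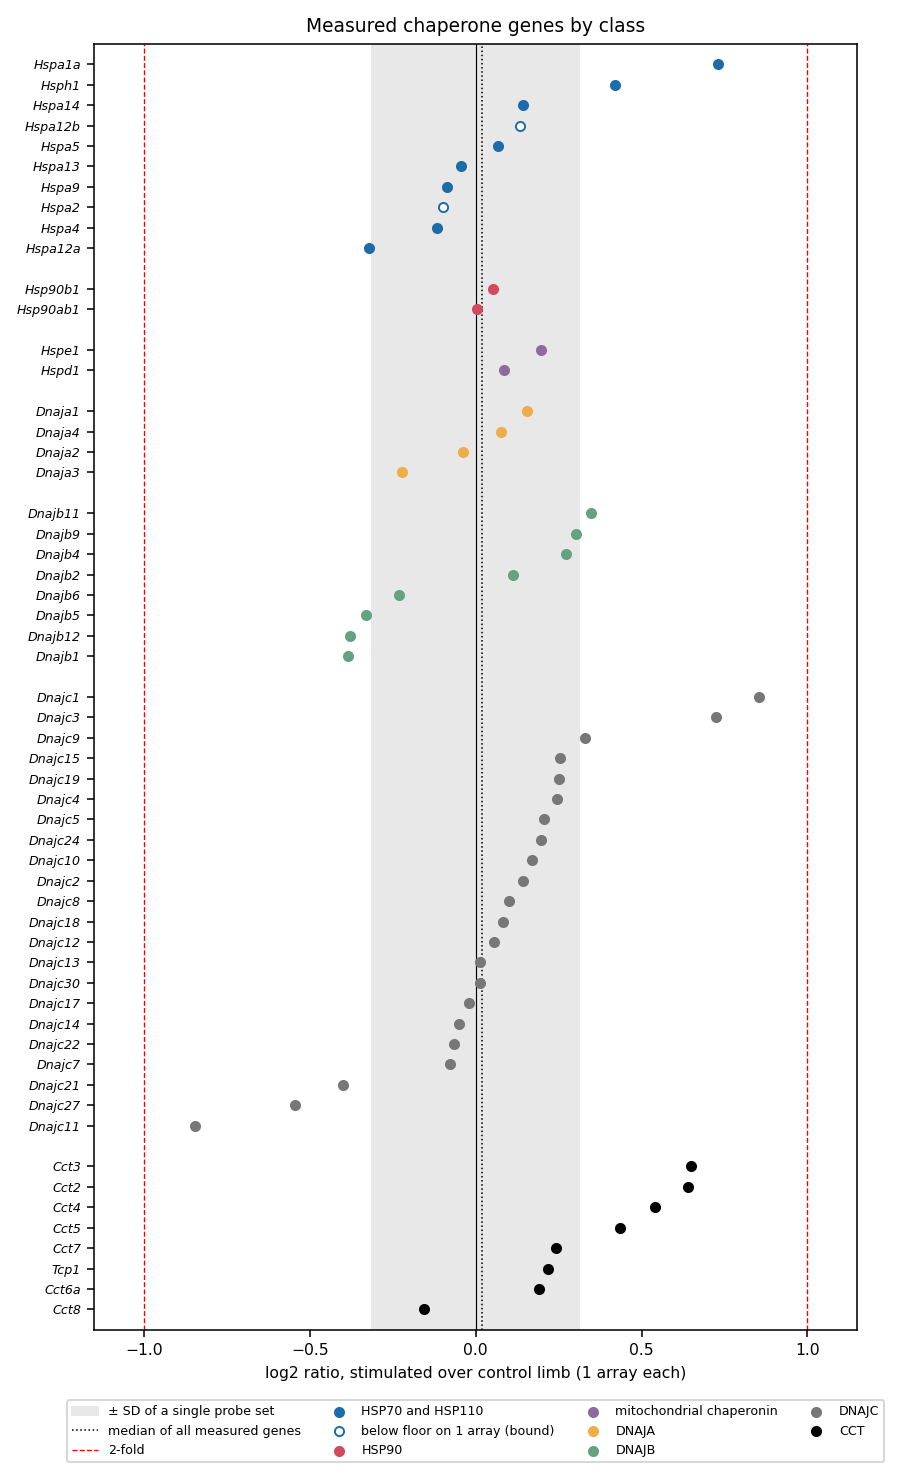
Log2 ratio of stimulated over control signal (horizontal axis, 1 array a limb) for each of the 56 measured members, grouped and coloured by class, with the single-probe-set SD of 0.31 in grey, 2-fold as dashed lines and open circles for members below the floor on 1 array. No point reaches 2-fold, and of the 8 CCT genes only Cct8 lies left of 0.

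In the cytosolic chaperonin, 7 of the 8 subunit genes lay above 0. CCT is a double ring in which each of its subunits, encoded by separate genes, holds a fixed place. The gamma subunit gene Cct3 (Entrez gene 295230) had a signal of 1182 in the stimulated and 753 in the control limb, 1.57-fold higher. For Cct2 (Entrez gene 299809), the beta subunit, the signals were 767 and 493, 1.56-fold higher. Cct4, the delta subunit, had 1312 against 902, 1.45-fold higher. These 3 ratios exceeded the SD of a single probe set. So did that of Cct5, the epsilon subunit, with 1353 against 1002, a log2 ratio of 0.43, and its second probe set gave 0.53.

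The other 4 subunits lay within the SD. Signals were 521 and 441 for Cct7 (log2 ratio 0.24) and 1172 and 1007 for Tcp1, the alpha subunit (0.22). Cct6a had 550 against 481, a log2 ratio of 0.19, with 0.016 from its second probe set. Cct8, the theta subunit, was the only member of the class below 0, at 304 against 339 and a log2 ratio of -0.16, and its second probe set went the other way, at 0.37. The share of genes above 0 was thus 87.5% in this class, beside 52.3% of all genes, and 2 of 8 were at least 1.5-fold higher, beside 6.59% of all genes. With quantile normalization the class median was 0.29, and with scaling to the spike-ins, taken relative to the median gene, it was 0.33. Cct8 lay above 0 when the median over its probe sets was used and when spike-in scaling was not taken relative to the median gene.

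Among the HSP70 proteins, the heat-inducible Hspa1a stood highest and the others scattered around 0. Hspa1a (Entrez gene 24472), the classic stress-induced HSP70 of the cytosol, had a signal of 250 in the stimulated and 151 in the control limb, 1.66-fold higher. A probe set listed with both Hspa1b and Hspa1a, which falls outside the rule because the near-identical pair shares it, gave 132 and 86.1, 1.54-fold higher. Hsph1, an HSP110 that acts as exchange factor for HSP70, had 359 against 268, a log2 ratio of 0.42. Its second probe set, at -0.21, went the other way, so Hsph1 has no settled direction. Hspa4, another HSP110, had 185 against 200.0, a log2 ratio of -0.12.

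The constitutive HSP70 proteins of the organelles lay close to 0. Hspa5 (BiP), the HSP70 of the endoplasmic reticulum (ER), had 1013 against 966, a log2 ratio of 0.068. Hspa9 (mortalin), which pulls proteins into mitochondria, had 298 against 316 and a log2 ratio of -0.086, but its second probe set, with 108 against 178, gave -0.71. The signal of Hspa13, an ER-associated HSP70, was 59.1 against 60.9 (log2 ratio -0.044), and that of Hspa14, which works at the ribosome, 101 against 91.9 (0.14). Hspa12a, a distant relative, had 19.8 against 24.7, at the edge of the floor, with a log2 ratio of -0.32. Hspa2, best known from the testis, and Hspa12b, known from endothelium, reached the floor on 1 array each, at 21.2 in the control and 21.7 in the stimulated limb. Of the 10 measured genes of this class 5 lay above 0 and 5 below, with a median of 0.012. A probe set listed with Hspa8, the constitutive HSP70 of the cytosol, and Haus8l2 had 5582 and 5691, a log2 ratio of -0.028.

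For HSP90, the constitutive forms did not differ beyond the SD, while probe sets shared by the inducible form and a pseudogene were higher. Hsp90ab1 (HSP90 beta) had a signal of 3630 in the stimulated and 3621 in the control limb, a log2 ratio of 0.0036, with -0.16 from its second probe set. Hsp90b1 (GRP94), the ER form, had 302 and 291, a log2 ratio of 0.052. Hsp90aa1, the inducible HSP90 alpha, which also assists myosin folding in muscle, had no probe set listed with its symbol alone. Both probe sets that list it also list Hsp90aa1-ps17, and the signal cannot be assigned to either. The first had 1237 against 614, 2.02-fold higher, the second 1977 against 1220, 1.62-fold higher. The first of these was the only one of the 6 probe sets with several symbols, all of them outside the counts above, to pass 2-fold. The 2 listed with Dnajb6 and its pseudogenes had log2 ratios of -0.40 and -0.14.

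**Figure D2:**
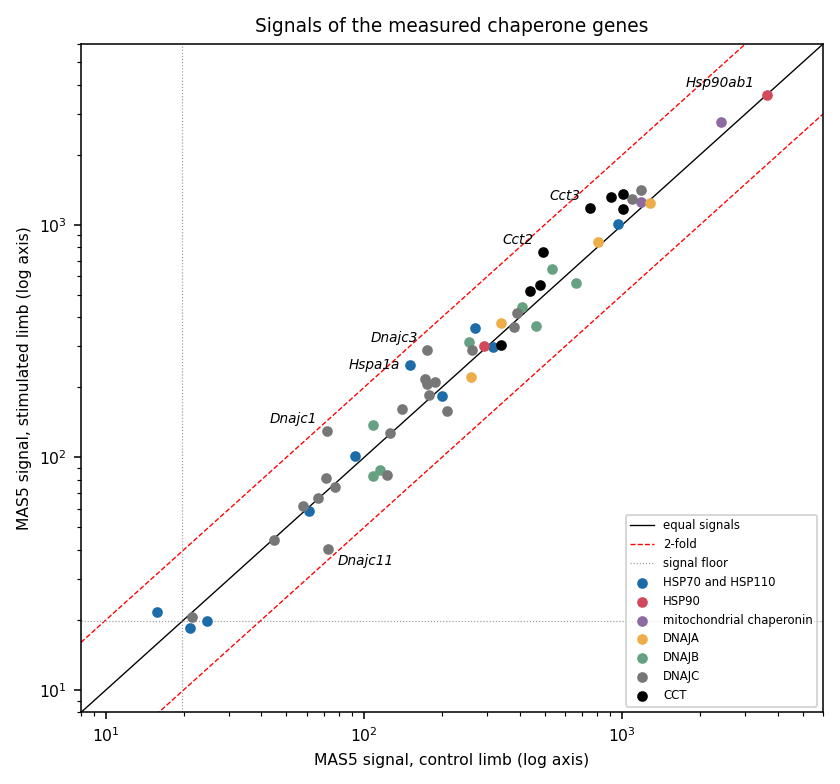
MAS5 signal in the stimulated limb (vertical, log axis) against that in the control limb (horizontal, log axis) for the 56 measured members, coloured by class, with equal signals as a solid line, 2-fold as dashed lines and the floor of 19.8 dotted. All 56 lie between the 2-fold lines, and Dnajc1, Hspa1a, Dnajc3, Cct2 and Cct3 lie nearest to the upper one.

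The mitochondrial chaperonin pair was slightly above 0. Hspd1 (HSP60), which forms the folding chamber of the mitochondrial matrix, had a signal of 1251 in the stimulated and 1179 in the control limb, a log2 ratio of 0.086. Its lid Hspe1 (HSP10) had 2766 and 2411, a log2 ratio of 0.20. Both lay within the SD. These genes stand head to head and share a promoter region.

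J-domain proteins of class DNAJA, the general partners of HSP70, all lay within the SD. Dnaja1 had 379 against 340, a log2 ratio of 0.16, and 0.29 from its second probe set. For Dnaja4 the signals were 846 and 802 (log2 ratio 0.078), with -0.15 from the second probe set. Dnaja2 had 1247 and 1280 (-0.038), and Dnaja3, the mitochondrial form, 222 and 259 (-0.22).

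Class DNAJB went both ways, with 4 of 8 measured genes above 0 and a median of -0.060. Dnajb1, the classic heat-induced partner of Hspa1a, had 88.0 in the stimulated and 115 in the control limb, a log2 ratio of -0.38, but its second probe set gave 0.21, so its direction is not settled either. The ER membrane protein Dnajb12 had 83.2 and 108, a log2 ratio of -0.38, and -0.67 from its second probe set. Dnajb5 had 367 and 462, a log2 ratio of -0.33, and both of its other probe sets were below 0 as well. Above 0 were 2 proteins of the ER lumen, Dnajb11 (137 against 108, log2 ratio 0.35) and Dnajb9 (313 against 254, 0.30), and the cytosolic Dnajb4 (644 against 533, 0.27) and Dnajb2 (442 against 409, 0.11). Dnajb6, whose mutations cause a limb-girdle muscular dystrophy, had 561 against 660, a log2 ratio of -0.23. No scaling moved a member of this class past 2-fold in either direction, and the class median was -0.067 over the same 8 genes with spike-in scaling relative to the median gene. That scaling also raised Dnajb14 to the floor, and over the resulting 9 genes the median was -0.24.

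Class DNAJC, the most varied in domain make-up, held both ends of the whole set. Dnajc1, a J-domain protein of the ER membrane, had the highest log2 ratio of all members, 0.85, with 130 in the stimulated and 71.8 in the control limb. Its second probe set had 18.4, below the floor, against 36.0, a log2 ratio of -0.86. No other member had probe sets that disagreed by more than 3 times the SD of such differences, which was 0.44, and the value of Dnajc1 therefore depends on the probe set. Dnajc3, an ER protein that also restrains the stress kinase PERK, had 291 against 176, 1.65-fold higher, from its single probe set. At the other end, Dnajc11, a protein of mitochondrial membrane organisation, had 40.2 against 72.4, 1.80-fold lower, while its second probe set gave -0.12. Dnajc27, which carries a GTPase domain, had 83.8 against 122, a log2 ratio of -0.55, and Dnajc21, a ribosome maturation factor, 159 against 209, one of -0.40.

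The remaining 17 genes of the DNAJC class had log2 ratios from -0.078 to 0.33. Dnajc9, a histone chaperone, had 217 against 173, a log2 ratio of 0.33. The import factors of the mitochondrial inner membrane, Dnajc15 (1415 against 1187) and Dnajc19 (1294 against 1087), both had log2 ratios of 0.25. Dnajc5, the cysteine string protein of synapses and secretory vesicles, had 161 against 140, a log2 ratio of 0.20, whereas its other measured probe sets lay below 0, down to -0.69. The ribosome-bound Dnajc2 had 289 against 262, a log2 ratio of 0.14, and Dnajc10, an ER disulfide reductase, 211 against 188, one of 0.17, with 0.55 from its second probe set.

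Among the other DNAJC genes, the endosomal Dnajc13 (66.8 stimulated, 66.2 control) and the mitochondrial Dnajc30 (127 and 126) had nearly equal signals in both limbs. Dnajc7, which passes clients between HSP70 and HSP90, had 362 against 382, a log2 ratio of -0.078. The spliceosome-associated Dnajc8 had 418 against 390 (0.10), and Dnajc17, also linked to splicing, 44.1 against 44.8 (-0.022). Dnajc24, an enzyme of diphthamide synthesis, had 81.7 against 71.3 (0.20). The signals of Dnajc12, a partner of aromatic amino acid hydroxylases, were 186 and 179 (0.056). Dnajc14, an ER protein that aids the export of receptors, had 74.5 against 77.1 (-0.049), with -0.53 from its second probe set. Dnajc4 (207 against 175), Dnajc18 (61.7 against 58.3) and Dnajc22 (20.6 against 21.6) had log2 ratios of 0.24, 0.082 and -0.066. None of these 11 genes exceeded the SD of a single probe set.

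**Figure D3:**
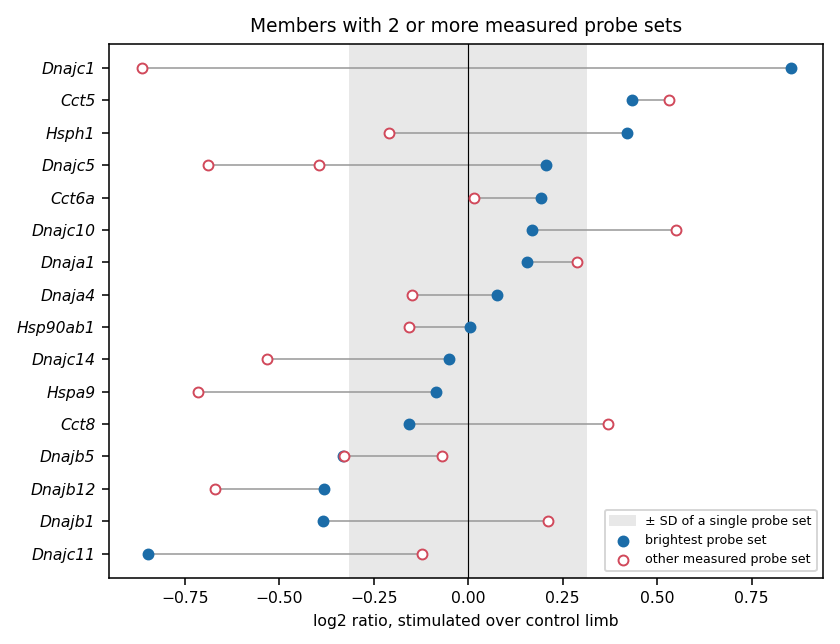
Log2 ratio of stimulated over control (horizontal axis) for the 16 members with at least 2 measured probe sets, with the brightest probe set filled, the others open, and the SD of 0.31 in grey. The pair of Dnajc1 is the widest apart, at 0.85 and -0.86, the latter with its stimulated signal below the floor.

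Of those 16 members, the brightest and the second probe set had the same sign in 9 and opposite signs in 7, and their median absolute difference was 0.43. The share of opposite signs over all genes with several probe sets was not computed, so these counts are not read as particular to the members. Members with opposite signs were Cct8, Dnaja4, Dnajb1, Dnajc1, Dnajc5, Hsp90ab1 and Hsph1. Among the 5 members at least 1.5-fold higher, Hspa1a, Dnajc3, Cct2 and Cct3 rest on 1 probe set each.

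By compartment, a fixed list of ER members had 7 of 9 measured genes above 0 and a median of 0.17. Of all genes, 52.3% lay above 0. The list leaves out Dnajc14, named above as an ER protein, which lay below 0 (-0.049, and -0.53 from its second probe set). With the median over probe sets, which lowers Dnajc1 to -0.0053, the ER median was 0.068. The highest were Dnajc1 and Dnajc3, and the abundant ER chaperone genes Hspa5 and Hsp90b1 were within 0.1 of 0. Mitochondrial members had a median of 0.086 over 9 genes, with 6 above 0. Of 12 listed heat-inducible targets of HSF1, 8 were measured and 7 lay above 0, with a median of 0.18. The list includes Hsp90ab1 and Hspa8, described above as constitutive, and Hsp90ab1 counts among the 7 with a log2 ratio of 0.0036. Hspa1b, Hspa8 and Hsp90aa1 had no probe set with their symbol alone, and Hspa4l was below the floor. Among the 7, Hsph1 and Hsp90ab1 had a second probe set below 0 (-0.21 and -0.16). Dnajb1, the measured gene of the list that lay below 0, had a second probe set above 0 (0.21). The 7 of 8 above 0 stand beside 52.3% of all genes. Above the median gene were 6 of the 8, since Hsp90ab1 lay below it. The 8 genes ranged from Dnajb1 at -0.38 to Hspa1a at 0.73, and 1 of the 8 was at least 1.5-fold higher, beside 6.59% of all genes.

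The promoters of the members were searched for the binding sequences of their known regulators, because heat-inducible and ER members are controlled through them. Sequences are from RefSeq, assembly GRCr8, and cover 250 bases before to 50 after the gene start for 53 of the 63 members. The other 10 had no promoter sequence and were not searched. A member not named below may be one of them or may hold an element with other letters, so it is not shown to lack one. A heat shock element of 3 units was taken as GAANNTTCNNGAA or TTCNNGAANNTTC on either strand. Each of these is the reverse complement of the other. It was present in 5 members (Cct4, Dnaja1, Hspd1, Hspe1 and Hsph1), which is 9.43% of the 53, and in 0.798% of all 33469 promoters. The ER stress response element, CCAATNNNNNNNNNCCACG on either strand, was present in 3 members (Dnajc3, Hsp90b1 and Hspa5), 5.66% of the 53, and in 0.0657% of all promoters. A match is a description of the letters and not evidence of binding. The stretches below show the sites upstream of the start, the shared one of Hspe1 and Hspd1 from the side of Hspe1, with the matched bases in capitals, as read on the strand of the gene:
Hspe1 (heat shock element, chr9:64084232-64084309, plus strand): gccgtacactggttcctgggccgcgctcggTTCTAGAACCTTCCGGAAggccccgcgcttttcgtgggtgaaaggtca
Hsph1 (heat shock element, chr12:10427302-10427367, plus strand): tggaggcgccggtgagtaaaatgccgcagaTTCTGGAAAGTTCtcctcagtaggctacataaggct
Hspa5 (ER stress response element, chr3:38452943-38453015, plus strand): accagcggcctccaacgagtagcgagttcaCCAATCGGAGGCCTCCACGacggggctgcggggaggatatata
Hsp90b1 (ER stress response element, chr7:23012421-23012499, minus strand): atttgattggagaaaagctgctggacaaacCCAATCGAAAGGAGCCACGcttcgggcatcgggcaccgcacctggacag
Hsp90b1, second site (ER stress response element on the opposite strand, chr7:23012317-23012395, minus strand): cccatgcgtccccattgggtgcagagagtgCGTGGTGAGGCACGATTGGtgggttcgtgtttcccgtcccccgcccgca
Dnajc3 (ER stress response element, chr15:102432504-102432582, plus strand): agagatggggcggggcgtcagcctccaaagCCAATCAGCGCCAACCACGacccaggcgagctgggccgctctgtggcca

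The Hspe1 site consists of overlapping matches over 18 bases and lies 65 to 48 bases upstream of Hspe1. The same site lies 242 to 225 bases upstream of Hspd1, which is read from the other strand. In Hsph1 the site lies 36 to 24 bases upstream, and in Dnaja1 and Cct4 it lies 10 and 26 bases past the start. The 5 genes with the heat shock element had log2 ratios of 0.54 (Cct4), 0.42 (Hsph1), 0.20 (Hspe1), 0.16 (Dnaja1) and 0.086 (Hspd1), a median of 0.20. Over all 41 measured genes with that element the median was 0.12. The 3 genes with the ER stress response element shared the motif but not the ratio, at 0.72 for Dnajc3, 0.068 for Hspa5 and 0.052 for Hsp90b1, and all 14 measured genes with it had a median of 0.069. In Hspa5 it lies 43 to 25 bases upstream and in Dnajc3 133 to 115 bases upstream, while Hsp90b1 holds a second copy 72 to 54 bases upstream, on the opposite strand.

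Regulators and partner proteins of these chaperones were taken from lists of the pathway. By the brightest probe set, 0 of their 49 measured genes were 2-fold higher or lower. Of all measured genes, 1.43% were higher and 1.43% lower by that fold, so this count is near the background. The second probe set of Bag6, a partner of HSP70, gave -1.09, against 0.053 from its brightest. Among the heat shock factors, Hsf1, the main activator, had 233 against 227, a log2 ratio of 0.038, and Hsf4 0.14. Hsf2, a related factor that forms complexes with Hsf1, had 281 against 179, 1.57-fold higher. Partners of HSP70 had a median of 0.067 over 11 genes, with Stub1 (a ubiquitin ligase, log2 ratio 0.35) and Bag2 (0.34) highest and Bag5, an exchange factor, lowest at 71.9 against 120 (-0.73). Partners of HSP90 had a median of 0.019 over 15 genes. The lowest of them were Smyd1, a methyltransferase that assists myosin assembly in muscle, at 190 against 301 (1.58-fold lower), and the phosphatase Ppp5c, at 131 against 198 (1.51-fold lower), and the third named by the rule, Cdc37l1, was at 0.30, but at -0.064 with the median over its probe sets. Unc45b, the myosin chaperone of muscle, had 331 against 348, a log2 ratio of -0.071.

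Prefoldin hands unfolded actin and tubulin to CCT, and all 5 of its genes measured here were above 0, from Pfdn2 at 0.17 to Pfdn5 at 0.39 (870 against 663). The list with its phosducin-like partners had a median of 0.26 over 8 genes, with 6 above 0, where 52.3% of all genes lay above 0. In that list Pdcl was highest at 76.7 against 52.5 (0.55, but 0.0038 under the higher floor at the 75th percentile), and Txndc9 lowest at 34.9 against 53.0 (-0.60). ER folding genes had a median of 0.069 over 11, with 6 above 0 and 5 below. Highest were Sdf2l1, a partner of Dnajb11, at 257 against 150 (1.71-fold higher), and Manf at 304 against 211 (1.44-fold). P4hb, a disulfide isomerase, followed at 1880 against 1329 (1.42-fold). Ero1a was lowest at -0.33, with 0.21 from its second probe set. With the floor at the 75th percentile the median of this list was 0.27 over 8 genes. The small heat shock proteins, set beside the large chaperones, had a median of 0.51 over 6 genes, with 1 of them 2-fold higher, beside 1.43% of all genes. Hspb7 had 1747 against 519 (3.37-fold higher), Hspb1 5285 against 2802 (1.89-fold) and Hspb8 2536 against 1562 (1.62-fold). The median over all probe sets put Hspb7 at 1.20, Hspb8 at 0.37 and that list at 0.34. The difference between the small and the large chaperones was not tested.

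**Figure D4:**
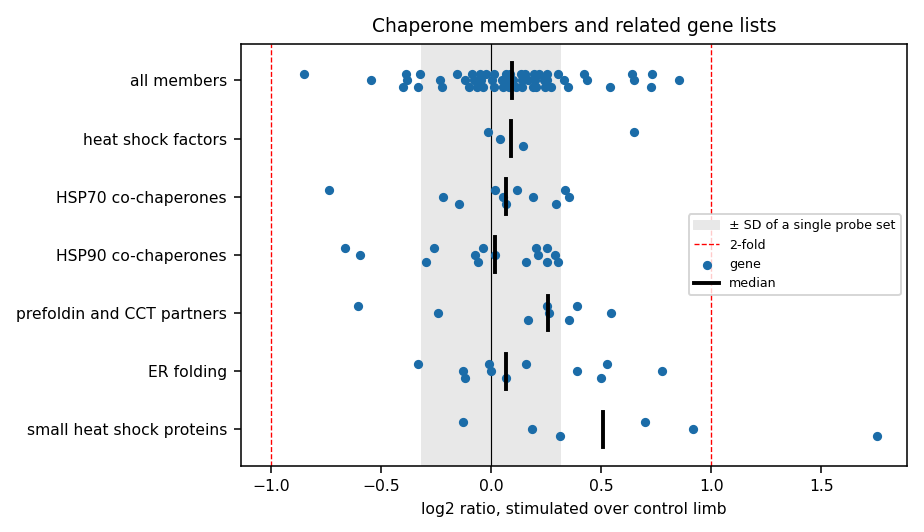
Log2 ratio of stimulated over control (horizontal axis) for the 56 measured members and for 6 related lists, with a point for each gene, a black bar for the median, the SD of 0.31 in grey and 2-fold as dashed lines. Medians run from 0.019 for HSP90 partners to 0.51 for small heat shock proteins, and Hspb7, at 1.75, is the only gene shown past 2-fold.

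Markers of other cell types differed between the same arrays. All 10 macrophage markers lay above 0, with a summed signal of 9893 in the stimulated and 1826 in the control limb, and so did all 6 slow-fibre genes, with 1464 and 513. Without Gpnmb and Spp1 the macrophage sums were 3880 and 1626. Of the skeletal muscle markers, 6 of 7 lay below 0 (summed signal 57766 and 75724). All 5 measured endothelial markers of 6 (336 and 517) and all 5 adipocyte markers (1304 and 3003) were below 0, as were 4 of 5 fibroblast markers (15059 and 18544). Of all measured genes, 52.3% lay above 0. The SD of a single probe set was exceeded by 8 of 10 macrophage, 5 of 6 slow-fibre and 5 of 7 skeletal muscle markers. For endothelium it was 3 of 5, for adipocytes 4 of 5 and for fibroblasts 2 of 5. The macrophage and slow-fibre markers past the SD were all above it, and those of the other lists all below its negative. Of all genes, 19.5% lay above that SD and 18% below its negative. Cd14 (log2 ratio 0.084), Cd163 (0.090) and the slow-fibre gene Myl3 (0.064) lay close to 0. No measured marker was at 0 on either array, but 5 were below the floor on 1 array: Spp1 (12.7), Myh7 (2.22) and Tnnt1 (13.3) in the control and Plin1 (15.8) and Cidec (15.7) in the stimulated limb. CCT is made in all of these cell types, and the part of the cell mixture in the values of Hspa1a, Dnajc3 and CCT was not tested.

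Below the floor on both arrays were 7 members: Hspa1l, Hspa4l, Dnajb3, Dnajb7, Dnajb13, Dnajb14 and Dnajc6. Their highest signal on either array was 18.9, for Dnajc6 (auxilin, which uncoats clathrin vesicles mainly in neurons), and 18.8 for Dnajb14, an ER membrane protein. Hspa1l, Dnajb3 and Dnajb13 are known mainly from the testis. No ratio is given for these genes, since signals below the floor have no order.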

How the data were processed

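The authors deposited 1 linear signal intensity per probe set and array, made with MAS5 per the submitters' processing notes, with version, scaling target and genome build not given in the sources used here. The mean after trimming 2% at each end was 76.5 on both arrays. Of 31099 probe sets, 57 controls were set aside, and 20826 had 1 gene symbol in the platform annotation, 436 several and 9780 none. All 63 members matched the RefSeq gene table (GRCr8) by gene identifier and 0 symbols changed. Ratios, floor and gene values were computed with Python 3.11.15 and pandas 2.3.3 as described in the report, and the counting was tested on simulated data. The number of arrays, 1 a group, limits the precision.

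The members and lists were chosen with earlier results of these data known. Named with values were the 6 highest and 6 lowest members, all members outside the DNAJ classes, 5 of each DNAJ class and 3 of each related list by absolute ratio, and members whose probe sets disagreed by more than 3 SD. Others were chosen after their values were seen. Hspbp1 was kept out of the small heat shock proteins. The 1.5-fold threshold was added after seeing the data.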

Additional observations from a re-analysis of the deposited data

How the results depend on the processing

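With the floor at the 75th or 25th percentile, genes above the floor on both arrays, quantile normalization, spike-in scaling relative to the median gene, the median over probe sets, and suffixed probe sets left out, the counts of members at least 2-fold higher and lower stayed at 0. Spike-in scaling as it is gave 5 higher and 0 lower and, by construction, raised the medians: all members 0.46, CCT 0.72, mitochondrial chaperonin 0.53, HSP90 0.41, HSP70 and HSP110 0.34, DNAJA 0.40, DNAJB 0.15, DNAJC 0.47, ER members 0.50, mitochondrial members 0.47, heat-inducible members 0.56, heat shock factors 0.47, HSP70 partners 0.44, HSP90 partners 0.40, prefoldin and CCT partners 0.64, ER folding 0.50 and small heat shock proteins 0.89. Relative to the median gene, spike-in scaling put DNAJB at -0.24 over 9 genes, and at -0.067 without the added Dnajb14. For ER folding, the floor at the 75th percentile left 8 genes and a median of 0.27. Small heat shock proteins came to 0.34 when all probe sets of a gene were combined. At 1.5-fold the counts were 5 higher and 1 lower. CCT kept 7 or 8 of 8 genes above the median gene under each setting. The median over probe sets moved the ER members to 0.068, Cdc37l1 to -0.064, Dnajc1 to -0.0053, Dnajc11 to -0.49, Hspa9 to -0.40 and Hsph1 to 0.10. Genes below the floor on 1 array have only bounds. No paired analysis was possible because each group has 1 array.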
